A study of Mus musculus with 14 samples.

Results

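The first day of overload was described from 4 of the 14 arrays of a time course in the mouse plantaris, which lies in the calf. They are the 2 arrays labelled day 1 and the 2 labelled day 0 with which they were compared, chosen by their day label and not by any measured value. Both groups came from male C57BL/6J mice aged 25 months, and each day has an array for pooled left muscles and an array for pooled right muscles, with 6 animals in a pool. On day 1 the plantaris had carried the load of its synergists, the gastrocnemius and soleus, for a day after their surgical removal, and day 0 is the muscle before that. The series title places the work in the study of age and muscle growth, but muscle of young mice was not analysed here. Since sham-operated animals appear in none of the array labels, the surgery and the added load cannot be told apart. The left and right pools of a day appear from the design text to stem from the same animals, although the labels number none. The p values therefore reflect how far sides and arrays differ, which may be technical, and day and animals cannot be told apart.

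Overload by removal of synergists makes a muscle grow over weeks, and its opening phase is known for injury, entry of blood leucocytes and activation of stress kinases. Stress and cytokine signals reach the nucleus through transcription factors that are already present, such as NF-kB and the STAT proteins, and these drive genes for further transcription factors and for their own inhibitors. Adult fibres in turn rely on a set of muscle forms of channels, enzymes and scaffold proteins whose genes are known to be turned down after denervation and injury. The lists below follow this order, running from signalling proteins to transcription factors, receptors and fibre genes. All values are log2 signals of the Affymetrix Mouse Gene 1.0 ST array as deposited, with the left array given before the right. Differences are day 1 minus day 0 with the standard error of the limma fit, so that a difference of 1 is a doubling, and a gene was called where the adjusted p was under 0.05.

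Of 19938 genes with a single symbol, 4455 (22.3%) rose and 4504 (22.6%) fell on day 1, with a median difference of 0.04. By at least 2-fold, 980 (4.92%) were higher and 630 (3.16%) lower. Both day 1 arrays lay above both day 0 arrays for 36.5% of the genes and below them for 31.3%. These shares are the background for every list that follows. Since members and lists were chosen with earlier results of these data known, no list count is independent evidence of direction. Across genes, which are not independent replicates, the left and right pools had r = 0.995 on day 1 and r = 0.994 on day 0. Unless a value is given as not called, both day 1 arrays lay beyond both day 0 arrays for every gene named below. That separation was required of the genes picked as the largest rises and falls. For them its mention below is no added evidence.

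Leucocyte markers were higher on day 1. All 8 neutrophil markers and all 9 measured markers of monocytes and macrophages were higher on day 1, with median differences of 1.94 and 2.75. The neutrophil markers summed to a log2 signal of 14.70 and 14.61 on day 1, against 12.75 and 12.18 on day 0. The monocyte and macrophage markers summed to 14.49 and 14.53 on day 1, against 12.96 and 12.46 on day 0. The left pool of day 0 thus stood above the right for both marker sets, and both day 1 pools stood above either. The T cell markers summed to 10.04 and 10.17 on day 1, against 10.02 and 9.91 on day 0, and no such shift was seen in them. Of 7 markers of smooth muscle and pericytes 6 were lower, and of 6 endothelial markers 4 were lower. The endothelial markers Pecam1 (-0.22 ± 0.14, adjusted p = 0.25) and Cdh5 (0.07 ± 0.08, adjusted p = 0.51) were not called. Of 4 tendon markers 3 were lower and 1 higher, with a median difference of -1.27. Of 8 fibroblast markers 5 were lower and 2, Pdgfra and Col3a1, were higher, and the lower ones numbered 3 without the left pool of day 0 and 3 without the left pool of day 1. The 10 markers of the muscle fibre summed to 16.96 and 16.94 on day 1, against 17.21 and 17.26 on day 0. The part of these shifts in the results below was not tested. In tissue RNA, fewer cells of a type and less RNA per cell cannot be told apart.

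Among single genes outside the chemokines and interleukins, the 15 largest rises included Slc7a11, the cystine carrier that feeds glutathione synthesis, at 10.79 and 11.34 on the day 1 arrays, against 6.93 and 6.65 on the day 0 arrays. It rose by 4.27 ± 0.24, or 19.3-fold (adjusted p = 3.8e-08). Others belonged to innate immunity, such as the C-type lectin receptor genes Clec4d and Clec4n with rises of 4.07 ± 0.15 and 3.98 ± 0.16, the endosomal RNA receptor gene Tlr13 with 4.01 ± 0.20 and the chemokine receptor gene Ccr1 with 4.24 ± 0.16. Mirt2, a long noncoding RNA, rose by 4.59 ± 0.22. These genes rose beside the leucocyte markers above, whose part in the rises was not tested. The left pool of day 0 stood above the right for Slc7a11, Clec4d, Tlr13, Ccr1 and Mirt2. For Clec4n it stood below, at 5.60 against 5.87. Among the 15 largest falls were Gdap1, a mitochondrial fission gene of nerve and muscle, at 7.65 and 7.71 on the day 1 arrays, against 10.27 and 10.35 on the day 0 arrays, and Lgi1, a secreted synaptic protein, at 6.19 and 6.29 on the day 1 arrays, against 8.68 and 8.79 on the day 0 arrays. They fell, with differences of -2.63 and -2.50. Ecm2, a matrix protein gene, fell by 2.44 ± 0.12, and Retnla, a gene of alternatively activated macrophages and fat, fell by 2.47 ± 0.34, with the left pool of day 0 well above the right. All of these genes lay apart by day on the 4 arrays, which was a condition for their choice.

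**Figure D1:**
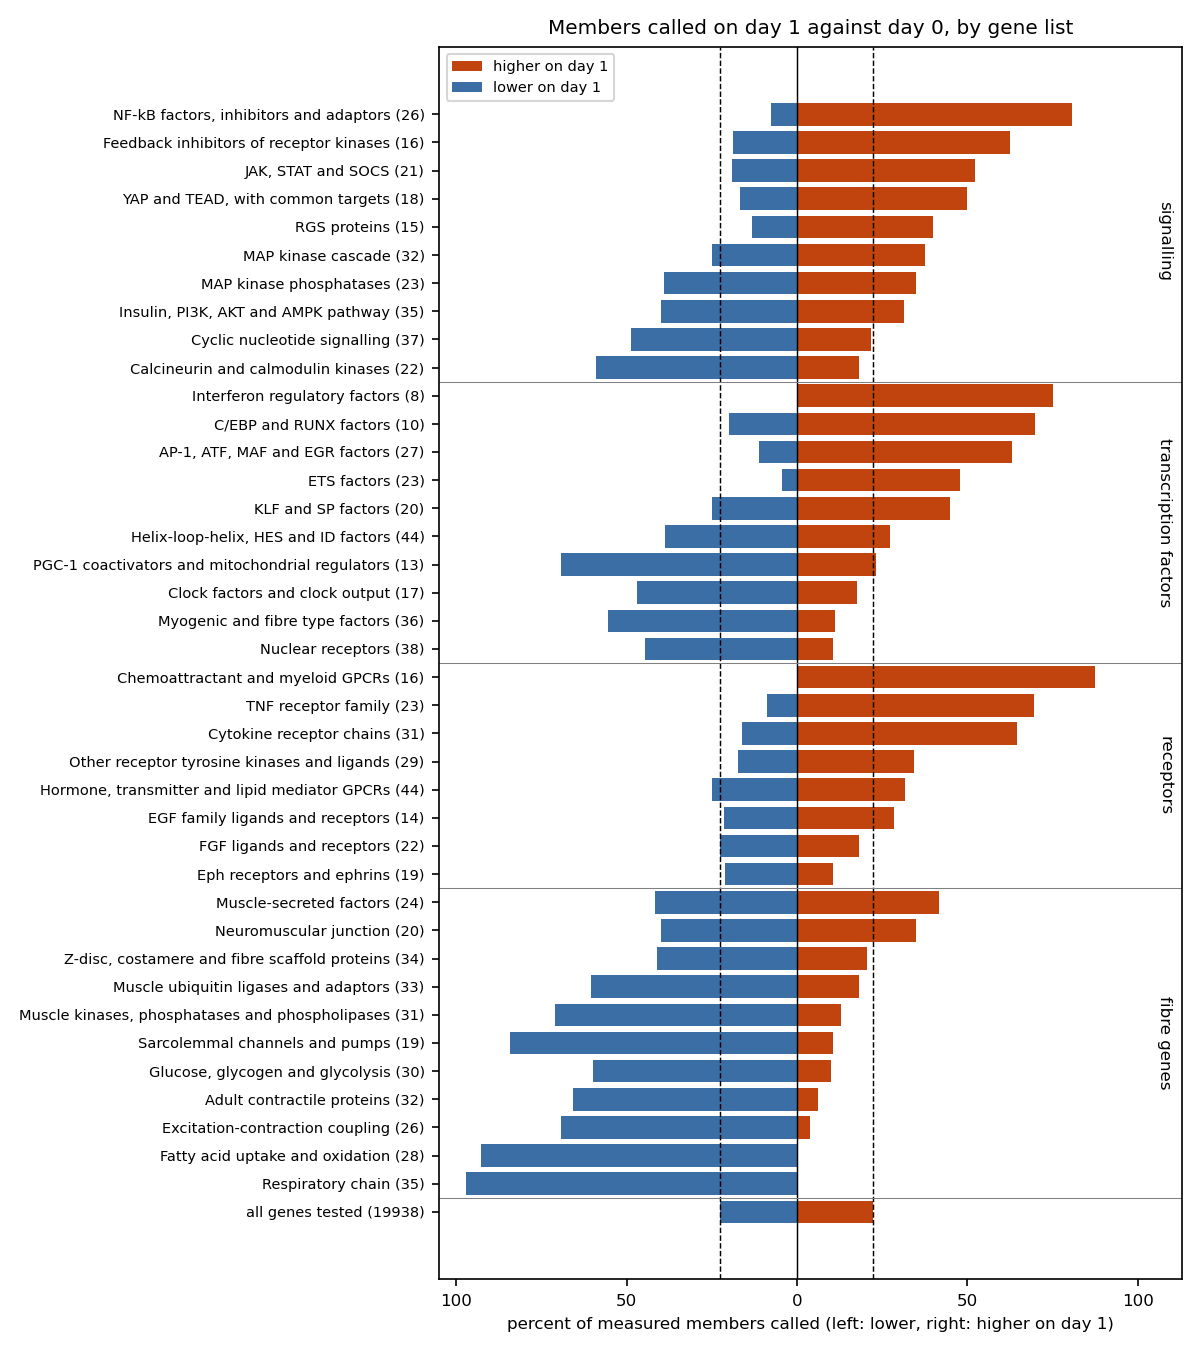
Share of the measured members of the gene lists shown (count in brackets) that were called on day 1 against day 0, with members higher on day 1 drawn to the right and members lower on day 1 to the left. Dashed lines mark the shares over all 19938 genes, 22.3% higher and 22.6% lower, and the lists of the respiratory chain and of fatty acid use lie furthest to the left.

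Genes of the NF-kB pathway rose together. NF-kB dimers are held in the cytoplasm by inhibitor proteins until a receptor adaptor triggers the kinase that destroys the inhibitor, and the inhibitor genes are themselves NF-kB targets. Of 26 measured factors, inhibitors and adaptors 21 were higher on day 1 and 2 lower, with a median difference of 0.87, and 12 rose by at least 2-fold. Myd88, the adaptor of Toll-like and interleukin 1 receptors, stood at 11.64 and 11.58 on the day 1 arrays, against 9.69 and 9.41 on the day 0 arrays. It rose by 2.06 ± 0.09 (adjusted p = 7.6e-09), and the 2 days did not overlap. Nfkbia, which encodes the classical inhibitor, stood at 11.33 and 11.47 on the day 1 arrays, against 9.96 and 9.85 on the day 0 arrays, a rise of 1.50 ± 0.10 with the days well apart. The nuclear members of the inhibitor family rose as well, Nfkbiz by 1.78 ± 0.09, Bcl3 by 1.78 ± 0.09 and Nfkbid by 1.62 ± 0.09. Tnfaip3, whose product A20 shuts the pathway down, rose by 1.15 ± 0.09, whereas Cyld, the other deubiquitinase of the list, fell by 0.59 ± 0.09. Birc2 also fell, by 0.50 ± 0.11, but its difference was -0.11 with the mean of its probe sets in place of the brightest one and was then not called (adjusted p = 0.36). The lower day 0 value lay in the right pool for Myd88, Nfkbia and Nfkbid. The part of leucocyte entry in these rises was not tested.

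Because several members are known targets of NF-kB, the 250 bases before each listed start site were searched for the kappaB site. Both strands were searched, using RefSeq promoters of build GRCm38.p6. A gene with several promoters was counted if any of them held the site, in the list and over all genes alike. Among the members that rose, 7 of the 18 with a promoter held it (38.9%), and so did 9 of 23 members of the whole list (39.1%), against 788 of 15614 genes with a promoter (5.05%). A match describes letters and is not a bound site. The promoters of 4 risers are printed 5′ to 3′ on the strand of the gene, with the kappaB site in capitals, to show where it lies.
Nfkbia, chr12:55492648-55492897, minus strand: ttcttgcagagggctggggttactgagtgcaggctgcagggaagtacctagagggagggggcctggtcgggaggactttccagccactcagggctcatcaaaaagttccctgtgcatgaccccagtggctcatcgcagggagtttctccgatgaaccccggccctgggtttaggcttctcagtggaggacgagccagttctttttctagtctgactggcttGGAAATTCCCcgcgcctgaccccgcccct
Nfkbie, chr17:45555450-45555699, plus strand: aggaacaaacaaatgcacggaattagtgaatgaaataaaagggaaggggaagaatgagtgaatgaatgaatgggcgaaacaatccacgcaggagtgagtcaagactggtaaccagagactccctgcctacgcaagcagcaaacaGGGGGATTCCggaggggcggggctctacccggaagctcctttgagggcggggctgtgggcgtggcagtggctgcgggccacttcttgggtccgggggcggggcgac
Tnfaip3, chr10:19015411-19015660, minus strand: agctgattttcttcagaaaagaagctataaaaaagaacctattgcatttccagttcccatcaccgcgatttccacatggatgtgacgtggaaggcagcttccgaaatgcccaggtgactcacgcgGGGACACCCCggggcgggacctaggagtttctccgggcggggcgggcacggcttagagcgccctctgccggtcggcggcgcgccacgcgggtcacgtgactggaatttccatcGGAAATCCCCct
Rel, chr11:23770970-23771219, minus strand: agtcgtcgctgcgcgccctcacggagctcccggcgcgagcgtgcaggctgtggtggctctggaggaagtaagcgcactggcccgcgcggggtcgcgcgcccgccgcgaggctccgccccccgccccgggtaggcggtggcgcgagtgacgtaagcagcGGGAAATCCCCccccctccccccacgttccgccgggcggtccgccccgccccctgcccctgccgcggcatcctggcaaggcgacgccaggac
The site nearest to the start began 29 bases before it in Nfkbia, 106 in Nfkbie, 12 in Tnfaip3 and 91 in Rel. The printed promoter of Tnfaip3 held 2 sites, and the 2 of Rel overlap. Printed promoters were chosen as holding a site, and another promoter listed for Tnfaip3 held none. These promoters belong to genes whose rises ranged from 0.40 ± 0.09 for Rel, a DNA-binding subunit, through 1.15 ± 0.09 for Tnfaip3 and 1.20 ± 0.08 for Nfkbie to 1.50 ± 0.10 for Nfkbia. The other motifs searched were the cyclic AMP response element TGACGTCA, the AP-1 site TGANTCA, the CArG box and the clock E-box CACGTG. Of these, the AP-1 site was held by 3 of the 18 risers with a promoter (16.7%), against 7.12% of all genes with a promoter.

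In the JAK and STAT pathway, which carries cytokine signals straight to the nucleus, Socs3 and Stat3 were among the genes that rose. Socs3, an inhibitor that blocks gp130 receptors, stood at 11.18 and 11.17 on the day 1 arrays, against 8.04 and 8.41 on the day 0 arrays. It rose by 2.95 ± 0.15, which is 7.73-fold (adjusted p = 1.6e-08), and the lower day 1 array exceeded the higher day 0 array by a wide margin. Stat3 stood at 12.57 and 12.47 on the day 1 arrays, against 10.92 and 10.88 on the day 0 arrays, a rise of 1.62 ± 0.07. The phosphatase genes Ptpn2 and Ptpn6 rose by 1.89 ± 0.10 and 1.51 ± 0.11. Stat5b, which relays growth hormone, moved the other way and fell by 0.52 ± 0.09, with Cish, a growth hormone target and inhibitor, falling by 0.38 ± 0.07 and Socs7 falling by 0.63 ± 0.09. In all 11 of 21 measured members were higher and 4 lower, with a median of 0.28. The shared receptor chain Il6st, which pairs with the receptors of the interleukin 6 family, was not called (0.04 ± 0.07, adjusted p = 0.69).

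Feedback inhibitors of the MAP kinases split by member. The MAP kinase phosphatases remove the activating phosphates from ERK, p38 or JNK, and 8 of 23 were higher and 9 lower on day 1 (median -0.19). Dusp5, specific to nuclear ERK, stood at 10.82 and 10.71 on the day 1 arrays, against 8.45 and 7.90 on the day 0 arrays. Its rise of 2.59 ± 0.15 (6.01-fold, adjusted p = 4.4e-08) left the days far apart. Dusp6, which acts on cytoplasmic ERK, rose by 1.11 ± 0.09 and Dusp9 by 0.98 ± 0.12. The phosphatases Dusp19, Dusp8 and Dusp18 fell, with differences of -1.04, -1.03 and -0.91. Dusp8 acts on p38 and JNK. Among the inhibitors that act nearer the receptor, 10 of 16 were higher and 3 lower (median 0.35). Spred1, a membrane-bound brake on growth factor signalling, stood at 10.33 and 10.23 on the day 1 arrays, against 8.79 and 8.87 on the day 0 arrays and rose by 1.45 ± 0.09. Spry2 rose by 0.99 ± 0.08 while its relative Spry1 fell by 0.89 ± 0.08, and the groups of each gene were separate. Errfi1, which blocks the EGF receptor, rose by 0.97 ± 0.09, and Lrig1, another brake on that receptor, fell by 0.63 ± 0.09.

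In the kinase cascade itself 12 of 32 measured members were higher and 8 lower, with a median of 0.06. Map3k8, the kinase through which Toll-like receptors reach ERK, stood at 10.47 and 10.39 on the day 1 arrays, against 8.47 and 8.41 on the day 0 arrays and rose by 1.99 ± 0.08 (adjusted p = 3.1e-09). Mapk4 and Mapk7, which encodes ERK5, rose by 1.49 ± 0.09 and 1.02 ± 0.08. Map2k6, an activator of p38, was the largest fall of the list. It stood at 8.49 and 8.20 on the day 1 arrays, against 10.35 and 10.24 on the day 0 arrays, and its difference of -1.95 ± 0.14 took it to 0.259 of the day 0 signal. Map3k4, an upstream kinase of p38 and JNK, fell by 1.01 ± 0.08, Mapk10, the gene of JNK3, fell by 0.73 ± 0.08 and Map2k5, the activator of ERK5, fell by 0.65 ± 0.10.

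Genes of insulin and AMPK signalling moved in both directions, 11 of 35 higher and 14 lower (median 0.03). Irs1, the docking protein through which the insulin receptor reaches PI3K, stood at 9.05 and 9.12 on the day 1 arrays, against 10.53 and 10.56 on the day 0 arrays. It fell by 1.46 ± 0.08 (adjusted p = 3.7e-08), to 0.363 of day 0, and the 4 arrays fell into tight pairs by day. Igf1r, the receptor of insulin-like growth factor 1, went the other way with a rise of 1.17 ± 0.07. Irs2 was not called (0.08 ± 0.08, adjusted p = 0.48). Prkag3, the regulatory subunit that marks the AMPK of fast glycolytic fibres, stood at 10.31 and 10.38 on the day 1 arrays, against 11.77 and 11.79 on the day 0 arrays and fell by 1.44 ± 0.09. Among the tribbles pseudokinases, which bind ubiquitin ligases, Trib3 rose by 1.04 ± 0.09 and Trib2 fell by 0.98 ± 0.08. Pik3cg, the PI3K subunit of leucocytes, rose by 1.59 ± 0.14, beside the leucocyte markers given above.

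More genes of cyclic nucleotide and calcium signalling were lower than higher. Of 37 genes for cyclases, phosphodiesterases and protein kinase A 18 were lower and 8 higher (median -0.16). Pde4a, a phosphodiesterase that breaks down cyclic AMP, stood at 8.19 and 8.17 on the day 1 arrays, against 9.88 and 9.82 on the day 0 arrays. It fell by 1.67 ± 0.07 (adjusted p = 2.4e-09), and Pde7a and Pde7b, from another family of the same enzymes, fell, with differences of -1.24 and -1.14. Pde4b, the form common in leucocytes, rose by 0.60 ± 0.09, so the members of the Pde4 family did not move alike. Of 22 genes for calcineurin, its NFAT targets and the calmodulin kinases 13 were lower and 4 higher (median -0.41). The 2 regulators of calcineurin parted. Rcan1, itself a calcineurin target, stood at 12.51 and 12.59 on the day 1 arrays, against 11.18 and 11.19 on the day 0 arrays and rose by 1.36 ± 0.14. Rcan2 stood at 9.15 and 9.21 on the day 1 arrays, against 10.68 and 10.51 on the day 0 arrays and fell by 1.42 ± 0.16. The kinase genes Camk2g and Camk2a fell, with differences of -1.08 and -0.94 and the transcription factor gene Nfatc2 fell by 0.71, while Nfat5, which responds to osmotic stress, rose by 0.93 ± 0.08.

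Rrad, an RGK protein that restrains voltage-gated calcium channels, had the largest rise of all the signalling lists. It stood at 12.65 and 12.62 on the day 1 arrays, against 8.71 and 9.28 on the day 0 arrays. The rise of 3.64 ± 0.15 was 12.5-fold (adjusted p = 4.1e-09), and its relative Gem rose by 1.16 ± 0.12. Rhog rose by 1.59 ± 0.11, and Rac2, a GTPase of blood cells, by 1.45 ± 0.14. The day 0 values of Rac2 were 10.14 in the left pool and 9.62 in the right pool. Among RGS proteins, which switch G proteins off, 6 of 15 were higher and 2 lower. Rgs1, a leucocyte form, stood at 7.26 and 7.88 on the day 1 arrays, against 5.98 and 5.42 on the day 0 arrays, and Rgs5, a pericyte marker, at 10.34 and 10.49 on the day 1 arrays, against 11.85 and 11.79 on the day 0 arrays. Rgs1 rose by 1.87 ± 0.23 beside the leucocyte markers. Rgs5, itself 1 of the 7 smooth muscle and pericyte markers, fell by 1.41 ± 0.12. Of 18 genes of YAP and TEAD with common targets 9 were higher and 3 lower (median 0.33). The targets Ankrd1 and Ccn1 rose by 3.40 ± 0.20 and 1.50 ± 0.08, whereas Amotl2, another target, was not called (-0.04 ± 0.07, adjusted p = 0.72), and Vgll4, a competitor of YAP, fell by 0.78 ± 0.08.

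**Figure D2:**
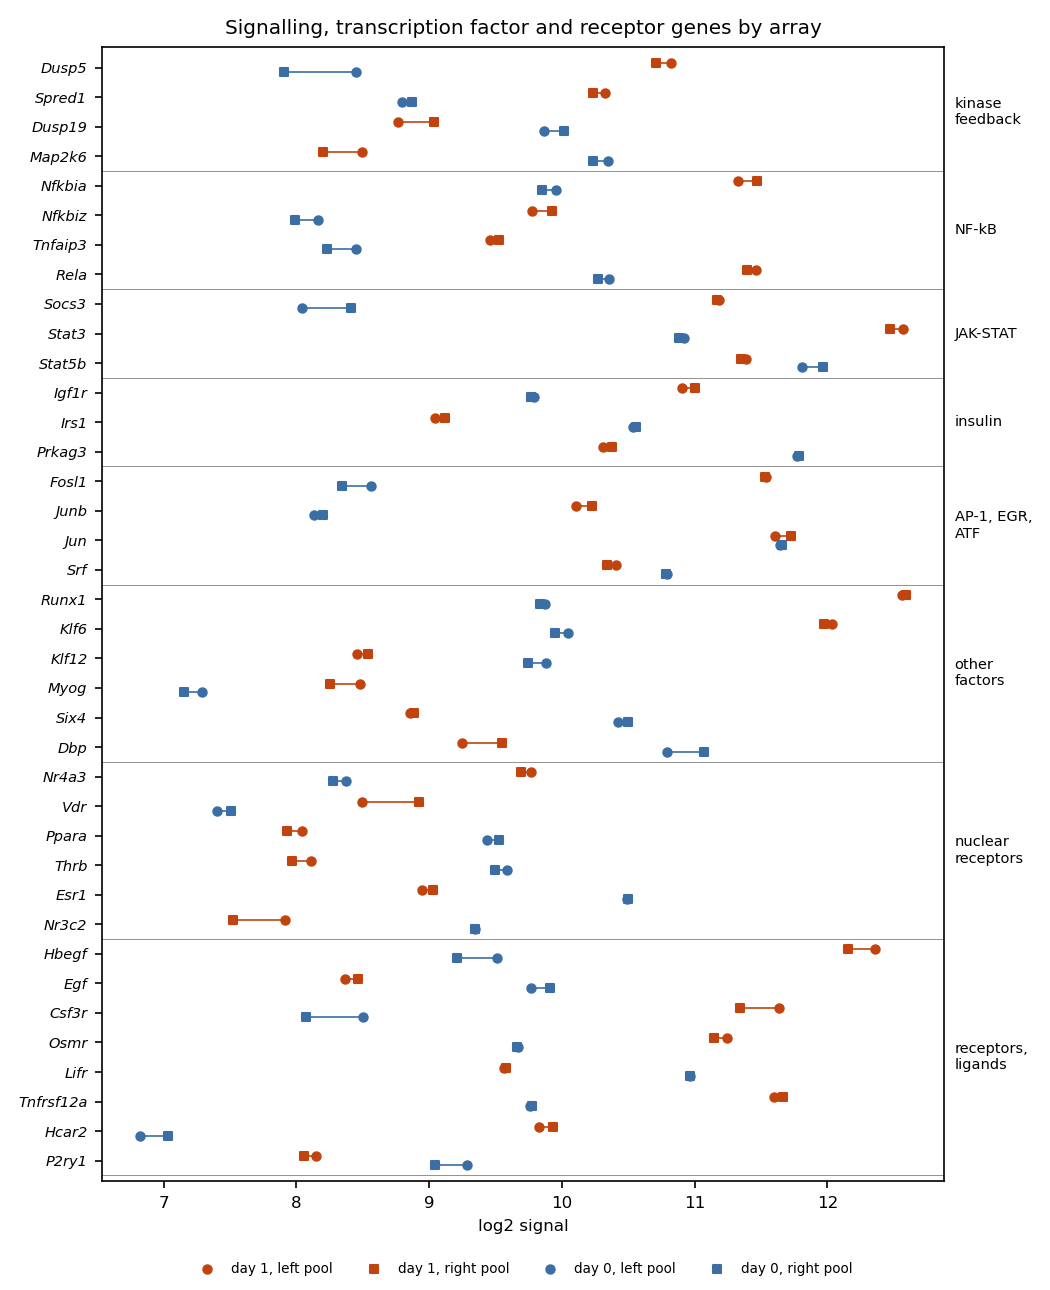
Log2 signal of 38 signalling, transcription factor and receptor genes on each of the 4 arrays, with day 1 drawn above day 0 in every pair of lines, circles for the left pool and squares for the right. For every gene shown except Jun the 2 days are apart, and Jun has its day 0 arrays between those of day 1.

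Among transcription factors the inducible families were higher on day 1. Of 27 AP-1, ATF, MAF and EGR genes 17 rose and 3 fell, with a median of 0.61 and 11 rises of at least 2-fold. AP-1 is a dimer of a Jun and a Fos protein, and some of its subunit genes were called higher while others were not called. Fosl1, the Fos relative FRA1, stood at 11.54 and 11.53 on the day 1 arrays, against 8.56 and 8.34 on the day 0 arrays. Its rise of 3.09 ± 0.14 was 8.49-fold (adjusted p = 8.2e-09), with the arrays of each day close together. Junb stood at 10.11 and 10.22 on the day 1 arrays, against 8.13 and 8.20 on the day 0 arrays and rose 4-fold. Jun stood at 11.61 and 11.72 on the day 1 arrays, against 11.64 and 11.66 on the day 0 arrays, its days overlapped, and its difference of 0.01 ± 0.08 was not called (adjusted p = 0.91). Jund was not called either (0.05 ± 0.08, adjusted p = 0.62). Atf3 and Egr1, both immediate-early genes, rose by 2.56 ± 0.19 and 2.30 ± 0.11. Srf, the factor that binds the CArG box of many actin and immediate-early genes, fell by 0.42 ± 0.08, and Maf fell by 0.56 ± 0.10.

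KLF, C/EBP and RUNX factors followed. Of 20 KLF and SP genes 9 were higher and 5 lower (median 0.20). Klf6, known from injury responses, stood at 12.03 and 11.97 on the day 1 arrays, against 10.04 and 9.94 on the day 0 arrays, a rise of 2.01 ± 0.07 (adjusted p = 1.2e-09). Klf10, a target of TGF beta, and Klf5 rose by 1.61 ± 0.10 and 1.11 ± 0.11. Klf15, which controls amino acid and lipid use in muscle, fell by 0.95 ± 0.11, and Klf12 fell by 1.31 ± 0.11. The endothelial factors Klf2 and Klf4 were not called (-0.04 ± 0.10 and -0.08 ± 0.10). Of 10 C/EBP and RUNX genes 7 were higher and 2 lower. Runx1, which denervated muscle is known to switch on and which blood cells also use, stood at 12.56 and 12.59 on the day 1 arrays, against 9.87 and 9.84 on the day 0 arrays. It rose by 2.72 ± 0.07 (6.59-fold, adjusted p = 2.1e-10), and the arrays of each day lay close together. Cebpd and Cebpb, factors of the acute phase, rose by 1.78 ± 0.13 and 1.51 ± 0.09, and Ddit3, the C/EBP relative CHOP of the unfolded protein response, by 1.38 ± 0.11. Runx1t1 fell by 1.10 ± 0.10.

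ETS and interferon regulatory factors include several that define leucocytes. Of 23 ETS genes 11 were higher and 1 lower. Spi1, the master factor of myeloid cells, stood at 10.68 and 10.75 on the day 1 arrays, against 8.79 and 8.43 on the day 0 arrays. It rose by 2.10 ± 0.12, with its lower day 0 value in the right pool. Elf4 and Etv6 rose by 1.37 ± 0.09 and 1.21 ± 0.09, and Etv1 fell by 0.95 ± 0.08. Of 8 interferon regulatory factors 6 were higher and the others not called, with a median of 0.69. Irf7, which amplifies type I interferon, rose by 1.48 ± 0.17, Irf5 by 1.31 ± 0.11 and Irf9, part of the interferon-activated STAT complex, by 1.19 ± 0.09. The neutrophil and monocyte markers rose beside these lists, and their part in them was not tested.

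Nuclear receptors fell more often than they rose, 17 of 38 lower and 4 higher, with 8 falls and 3 rises of at least 2-fold (median -0.15). These are transcription factors that bind hormones or lipids. Nr3c2, the mineralocorticoid receptor, stood at 7.91 and 7.52 on the day 1 arrays, against 9.35 and 9.35 on the day 0 arrays. It fell by 1.63 ± 0.14 (adjusted p = 1.1e-06). Thrb, a thyroid hormone receptor, stood at 8.11 and 7.97 on the day 1 arrays, against 9.59 and 9.50 on the day 0 arrays, and Ppara, which drives fatty acid oxidation, at 8.04 and 7.93 on the day 1 arrays, against 9.44 and 9.53 on the day 0 arrays. Each fell to 0.353 of day 0, and Esr1, the oestrogen receptor alpha, fell by 1.50 ± 0.11 with both day 0 arrays at 10.49. Those that rose were Nr4a3, a receptor induced by activity and stress, with 9.76 and 9.69 on the day 1 arrays, against 8.38 and 8.27 on the day 0 arrays, and Ppard, Vdr and Rara. Their rises were 1.40 ± 0.17, 1.26 ± 0.10, 1.26 ± 0.14 and 0.96 ± 0.08. Ppara and Ppard, both fatty acid receptors, thus moved in opposite directions. Nr4a1, a close relative of Nr4a3, was not called (-0.09 ± 0.19, adjusted p = 0.74) and its days overlapped.

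Helix-loop-helix factors were divided, with 12 of 44 higher and 17 lower. Beside Myc at 3.33 ± 0.10, its antagonist Mxd1 stood at 12.24 and 12.22 on the day 1 arrays, against 9.89 and 9.60 on the day 0 arrays and rose by 2.49 ± 0.11, so both a driver and a repressor of the same E-box targets were higher. Hif1a, the oxygen-regulated factor, rose by 1.68 ± 0.10. Its relative Epas1, which encodes HIF-2 alpha and is rich in endothelium, fell by 1.12 ± 0.10, while 4 of 6 endothelial markers were lower. Mlxipl, the glucose-sensing factor ChREBP, stood at 8.92 and 9.03 on the day 1 arrays, against 10.81 and 10.76 on the day 0 arrays and fell by 1.81 ± 0.14 (adjusted p = 6.9e-07). Tfec, a factor of macrophages, had day 0 values of 7.92 in the left pool and 6.89 in the right pool and rose by 2.53 ± 0.24.

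Of 36 myogenic and fibre type factors 20 were lower and 4 higher (median -0.31). The 3 rises of largest size were those of the myogenic regulators, with Myog at 8.48 and 8.25 on the day 1 arrays, against 7.29 and 7.15 on the day 0 arrays, Myod1 at 11.94 and 11.56 on the day 1 arrays, against 10.68 and 10.59 on the day 0 arrays and Myf6 at 13.70 and 13.73 on the day 1 arrays, against 12.68 and 12.80 on the day 0 arrays. They rose by 1.15 ± 0.09, 1.11 ± 0.12 and 0.98 ± 0.12. Pax7, the satellite cell factor, was lower by contrast (-0.33 ± 0.08, adjusted p = 0.0041), and Myf5 was not called (-0.08 ± 0.13). Six4, a factor that directs fast fibre genes, stood at 8.86 and 8.88 on the day 1 arrays, against 10.42 and 10.50 on the day 0 arrays and fell by 1.59 ± 0.08. Tbx15, another factor of fast glycolytic fibres, fell by 1.11 ± 0.09, the muscle methyltransferase gene Smyd1 fell by 1.09 ± 0.14 and Mef2c fell by 0.98 ± 0.12. Of 17 clock factors and outputs 8 were lower and 3 higher. The output factors Dbp and Hlf fell, with differences of -1.54 and -1.05 and Per3 fell by 1.25, while Nfil3, which opposes Dbp at the same sites, rose by 1.23 ± 0.09. Dbp stood at 9.25 and 9.55 on the day 1 arrays, against 10.80 and 11.07 on the day 0 arrays. The sources used here do not give the hour at which muscles were taken, so the day and the hour cannot be told apart for these genes.

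Regulators of mitochondria were lower, 9 of 13, with 3 higher and a median of -0.74. Ppargc1a, the coactivator PGC-1 alpha that raises mitochondrial gene expression, stood at 9.70 and 9.39 on the day 1 arrays, against 11.21 and 11.19 on the day 0 arrays. It fell by 1.65 ± 0.21 (adjusted p = 4e-05), to 0.318 of day 0. Its partner Esrrg and Tfb1m, a gene for a mitochondrial protein, fell, with differences of -1.32 and -0.98. Pprc1, a related coactivator tied to cell growth, rose by 1.28 ± 0.10, so the coactivators did not move alike.

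Cytokine receptors changed in 2 directions. Of 31 receptor chains 20 were higher and 5 lower, with a median of 0.89 and 15 rises of at least 2-fold. Csf3r, the receptor of granulocyte colony-stimulating factor and a neutrophil marker, stood at 11.64 and 11.34 on the day 1 arrays, against 8.50 and 8.07 on the day 0 arrays and rose by 3.20 ± 0.17 (adjusted p = 2.7e-08). Il4ra and Il13ra1, the chains of the receptor for interleukins 4 and 13, rose by 2.46 ± 0.09 and 2.83 ± 0.13. Osmr, the oncostatin M chain that pairs with Il6st, stood at 11.24 and 11.15 on the day 1 arrays, against 9.67 and 9.66 on the day 0 arrays. Lifr, the chain for leukaemia inhibitory factor that pairs with the same partner, stood at 9.56 and 9.58 on the day 1 arrays, against 10.96 and 10.96 on the day 0 arrays. Osmr rose by 1.53 ± 0.09 and Lifr fell by 1.40 ± 0.10, with no overlap in either, while the partner Il6st was not called. Ghr, the growth hormone receptor, fell by 0.98 ± 0.11, Lepr fell by 0.93 ± 0.14 and Il15ra fell by 0.83 ± 0.07.

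Of 23 genes of the TNF receptor family 16 were higher and 2 lower (median 0.60). Tnfrsf12a, the TWEAK receptor of muscle fibres and their precursors, stood at 11.60 and 11.66 on the day 1 arrays, against 9.76 and 9.78 on the day 0 arrays. It rose by 1.86 ± 0.09 (adjusted p = 1.1e-08) and both days were tight. Tnfrsf1b, the TNF receptor common on leucocytes, rose by 1.99 ± 0.07, and the decoy receptor gene Tnfrsf23 by 2.03 ± 0.13. Tnfrsf19 fell by 1.39 ± 0.09. Among 16 chemoattractant and myeloid receptors coupled to G proteins 14 were higher and the others not called, with a median of 1.21. The complement receptors C5ar1 and C3ar1 rose by 3.05 ± 0.13 and 2.98 ± 0.12 and the receptor of platelet-activating factor, Ptafr, by 2.51 ± 0.14. C5ar1 stood at 10.96 and 10.89 on the day 1 arrays, against 8.14 and 7.62 on the day 0 arrays, with the left pool of day 0 above the right. These receptors are carried by the neutrophils and monocytes whose markers rose on the same arrays, and the part of those cells in the rises was not tested.

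Receptors for hormones, transmitters and lipid mediators were more evenly divided, 14 of 44 higher and 11 lower. Hcar2, the receptor for hydroxybutyrate and niacin on myeloid cells and fat cells, stood at 9.82 and 9.93 on the day 1 arrays, against 6.82 and 7.03 on the day 0 arrays. It rose by 2.95 ± 0.14 (7.74-fold), and the part of either cell type in its rise was not tested. In the fit of all arrays 5 of 5 adipocyte markers were lower. Of those 5 markers, 1 was lower without the left pool of day 0, 2 without the left pool of day 1 and 1 without the right pool of day 1. The nucleotide receptors split, with P2ry6 and P2ry13 higher by 1.49 ± 0.10 and 1.44 ± 0.11 and P2ry1 at 8.15 and 8.06 on the day 1 arrays, against 9.28 and 9.05 on the day 0 arrays, a fall of 1.06. Calcrl and its partners Ramp1 and Ramp2, which form the receptors of adrenomedullin and calcitonin gene-related peptide in vessels, fell, with differences of -0.88, -1.10 and -0.76. Of the endothelial markers 4 of 6 were lower, Pecam1 and Cdh5 being not called, and of the smooth muscle and pericyte markers 6 of 7. Ednrb, an endothelin receptor, rose by 1.36 ± 0.09. The beta adrenergic and the adenosine receptors were not analysed here.

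Of 14 EGF family genes 4 were higher and 3 lower, and the ligands Hbegf and Egf changed most. Hbegf, a heparin-binding ligand shed under stress, stood at 12.36 and 12.16 on the day 1 arrays, against 9.51 and 9.21 on the day 0 arrays. Egf stood at 8.37 and 8.47 on the day 1 arrays, against 9.76 and 9.91 on the day 0 arrays. Hbegf rose by 2.90 ± 0.13 (7.45-fold) and Egf fell by 1.42 ± 0.09, with each day's arrays apart from the other's. The receptor gene Egfr rose by 0.60 ± 0.09 and Erbb3 fell by 0.53 ± 0.09, while Erbb2 was not called (0.05 ± 0.09). Of 22 FGF genes 4 were higher and 5 lower, and 3 were lower without the right pool of day 0. Fgf6, a growth factor made by muscle, stood at 7.31 and 8.02 on the day 1 arrays, against 9.21 and 9.38 on the day 0 arrays and fell by 1.63 ± 0.21. Of 29 other ligands and receptors 10 were higher and 5 lower. Pdgfa stood at 12.14 and 12.18 on the day 1 arrays, against 10.71 and 10.74 on the day 0 arrays and rose by 1.43 ± 0.06, Pdgfb rose by 0.90 ± 0.09 and Pdgfd fell by 1.00 ± 0.09. Gas6, the ligand of the receptors that clear dying cells, fell by 0.93 ± 0.09. Of 19 Eph receptors and ephrins 2 were higher and 4 lower, but 2 were lower in a fit of the 4 arrays alone and 3 to 6 with 1 array left out.

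Among the fibre genes that were already low on day 1, large falls lay in the lists of muscle kinases and of ubiquitin ligases. Both list names are loose for members such as Lrrc30 and Smco1. Of 31 muscle kinases, phosphatases and phospholipases 22 were lower and 4 higher, with a median of -0.77 and 12 falls of at least 2-fold. Of 33 muscle ubiquitin ligases and adaptors 20 were lower and 6 higher (median -0.72, 11 falls of at least 2-fold). Members of both lists had been picked with earlier results of these data in view, Lrrc30, Plcd4, Smco1, Mylk4 and Klhl33 among them, so these counts are no independent evidence of direction. Plcd4, a phospholipase C, stood at 8.08 and 8.20 on the day 1 arrays, against 11.12 and 11.03 on the day 0 arrays. Mylk4, a myosin light chain kinase of striated muscle, stood at 11.11 and 10.90 on the day 1 arrays, against 13.38 and 13.49 on the day 0 arrays. They fell, with differences of -2.93 and -2.43, to 0.131 and 0.185 of day 0, with no array of one day near the other day. Asb15, a substrate adaptor of a ubiquitin ligase, stood at 9.16 and 9.39 on the day 1 arrays, against 11.73 and 11.70 on the day 0 arrays and fell by 2.44 ± 0.20, and Asb2, the adaptor that targets filamins, fell by 1.89 ± 0.16. Klhl31 fell by 1.88 ± 0.13.

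The ligases were not lower throughout. Trim63, the ligase MuRF1 of muscle wasting, stood at 12.89 and 12.82 on the day 1 arrays, against 11.09 and 11.52 on the day 0 arrays. It rose by 1.55 ± 0.15 (adjusted p = 4.4e-06), and Klhl40, which stabilises thin filament proteins, stood at 12.52 and 12.50 on the day 1 arrays, against 10.29 and 10.18 on the day 0 arrays and rose by 2.27 ± 0.20. Fbxo32, the ligase atrogin-1 that is often paired with Trim63, stood at 12.41 and 12.44 on the day 1 arrays, against 12.24 and 12.37 on the day 0 arrays and was not called (0.12 ± 0.13, adjusted p = 0.5). Whether the changes of these 2 ligases differ was not tested.

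Scaffold genes also moved in both directions. Of 34 Z-disc, costamere and scaffold genes 14 were lower and 7 higher, and the median was -0.08. Ky, whose product sits at the Z-disc and whose loss causes kyphoscoliosis in mice, stood at 7.95 and 7.72 on the day 1 arrays, against 11.08 and 11.07 on the day 0 arrays and fell by 3.25 ± 0.13 to 0.105 of day 0. Tcap, the titin cap, stood at 11.02 and 10.75 on the day 1 arrays, against 12.37 and 12.28 on the day 0 arrays and fell by 1.45 ± 0.23, and Ldb3 fell by 0.97 ± 0.16. Xirp1, Csrp3 and Ankrd2, which respond to stretch, rose by 2.02 ± 0.19, 1.76 ± 0.22 and 1.53 ± 0.24. Csrp3 stood at 12.75 and 12.86 on the day 1 arrays, against 11.19 and 10.90 on the day 0 arrays, so partners at the Z-disc such as Tcap and Csrp3 moved in opposite directions.

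Most genes of contractile proteins were lower, with few large falls. Of 32 measured genes 21 were lower and 2 higher, with a median of -0.38 and 3 falls of at least 2-fold, but 12 were lower without the right pool of day 1. Acta1, the skeletal actin, stood at 14.24 and 14.25 on the day 1 arrays, against 14.34 and 14.36 on the day 0 arrays, and Myh4, the fastest myosin heavy chain, at 13.67 and 13.66 on the day 1 arrays, against 13.83 and 13.87 on the day 0 arrays. Their differences of -0.10 ± 0.07 and -0.18 ± 0.09 were not called (adjusted p = 0.26 and adjusted p = 0.14). Both lie near the top of the deposited range, which ends at 14.79, and the part of that position in their small differences was not tested. Myl2, the slow regulatory light chain, stood at 9.79 and 9.32 on the day 1 arrays, against 11.19 and 10.96 on the day 0 arrays and fell by 1.52 ± 0.32, and Myl3 fell by 1.13 ± 0.24. Myh7, the slow myosin itself, stood at 8.95 and 8.96 on the day 1 arrays, against 10.03 and 9.40 on the day 0 arrays, a difference of -0.76 ± 0.37 that was not called (adjusted p = 0.11), with the left pool of day 0 above the right. Lmod3, which nucleates thin filaments, fell by 1.31 ± 0.10, and Myom2 of the M band fell by 0.89 ± 0.12. Tpm3, which encodes the slow and the broadly expressed tropomyosin, rose by 1.34 ± 0.09.

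Genes that couple excitation to contraction and set the membrane potential were lower. Of 26 coupling genes 18 were lower and 1 higher, with a median of -0.49. Stac3, needed for the calcium channel to reach the surface, stood at 10.13 and 10.10 on the day 1 arrays, against 11.58 and 11.65 on the day 0 arrays and fell by 1.50 ± 0.11 (adjusted p = 3.1e-07). Casq2, the slow and cardiac calsequestrin, stood at 8.02 and 8.01 on the day 1 arrays, against 9.74 and 9.72 on the day 0 arrays and fell by 1.72 ± 0.08. The junctophilin gene Jph2 fell by 1.33 ± 0.11, whereas Atp2a1, the fast calcium pump, was not called (-0.17 ± 0.08, adjusted p = 0.11). Of 19 channels and pumps of the fibre membrane 16 were lower and 2 higher (median -0.86). Kcnj2, an inward rectifier that holds the resting potential, stood at 9.05 and 9.25 on the day 1 arrays, against 11.05 and 11.06 on the day 0 arrays. Clcn1, the muscle chloride channel, stood at 9.84 and 9.87 on the day 1 arrays, against 11.36 and 11.42 on the day 0 arrays. They fell, with differences of -1.91 and -1.53, as did a potassium channel gene, Kcnc1, and a sodium channel beta subunit gene, Scn4b, with differences of -1.76 and -1.45.

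At the neuromuscular junction 8 of 20 genes were lower and 7 higher. Chrne, the adult subunit of the acetylcholine receptor, stood at 9.33 and 9.26 on the day 1 arrays, against 10.80 and 10.72 on the day 0 arrays. Chrng, the fetal subunit that it replaces, stood at 8.20 and 8.56 on the day 1 arrays, against 7.75 and 7.82 on the day 0 arrays, and Chrnd, a subunit of both forms, stood at 9.81 and 10.01 on the day 1 arrays, against 8.44 and 8.66 on the day 0 arrays. Chrne fell by 1.47 ± 0.15 while Chrng and Chrnd rose by 0.59 ± 0.10 and 1.36 ± 0.10, each without overlap. Ache, the esterase of the synapse, fell by 1.26 ± 0.09, and Nes, the intermediate filament nestin of junctions and of immature fibres, rose by 1.89 ± 0.08.

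Most genes of fuel use were lower. Of 30 genes of glucose and glycogen use 18 were lower and 3 higher (median -0.59), of 28 genes of fatty acid use 26 were lower (median -0.83), and of 35 genes of the respiratory chain 34 were lower (median -0.65). The remaining members of the last 2 lists were not called. Slc2a4, the insulin-regulated transporter GLUT4, stood at 10.78 and 10.75 on the day 1 arrays, against 12.78 and 12.67 on the day 0 arrays and fell by 1.96 ± 0.19 to 0.258 of day 0. Phkg1, the catalytic subunit of phosphorylase kinase, fell by 1.56 ± 0.20. Hk2, which traps glucose in the fibre, stood at 12.67 and 12.65 on the day 1 arrays, against 11.70 and 11.77 on the day 0 arrays and rose by 0.93 ± 0.16. Pygm, the muscle glycogen phosphorylase, was not called (-0.30 ± 0.12, adjusted p = 0.067). Lpl, which frees fatty acids in capillaries, stood at 11.24 and 10.97 on the day 1 arrays, against 12.32 and 12.49 on the day 0 arrays and fell by 1.30 ± 0.09. The carrier gene Ucp3 and the fatty acid binding protein gene Fabp3 fell, with differences of -1.38 and -1.22. The largest fall in the respiratory chain, that of Uqcrfs1, the iron-sulphur protein of complex III, was under 2-fold. Uqcrfs1 stood at 9.93 and 9.87 on the day 1 arrays, against 10.78 and 10.93 on the day 0 arrays and fell by 0.96 ± 0.09.

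Factors that muscle secretes moved both ways, 10 of 24 higher and 10 lower. Mstn, the growth inhibitor myostatin, stood at 9.73 and 9.68 on the day 1 arrays, against 11.19 and 11.28 on the day 0 arrays and fell by 1.54 ± 0.15 (adjusted p = 3.8e-06). Inhba, the activin subunit that uses the same receptors, stood at 10.19 and 10.71 on the day 1 arrays, against 8.50 and 8.47 on the day 0 arrays and rose by 1.96 ± 0.15, with Fstl3, an inhibitor of both, higher by 1.23 ± 0.08. The days of Mstn and Inhba were apart. Apln, the vascular peptide apelin, stood at 11.33 and 11.06 on the day 1 arrays, against 8.75 and 8.73 on the day 0 arrays and rose by 2.46 ± 0.10, and Ostn, the peptide osteocrin, fell by 1.49 ± 0.26. Igf1 was not called (-0.03 ± 0.09, adjusted p = 0.83).

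Muscle forms of several proteins fell while the forms that other cells use rose. Of 38 pairs of a broad and a muscle form, 31 had both forms measured, and in 15 of them the broad form was called higher and the muscle form lower. In 2 pairs both were higher, in 2 both were lower, and in 5 the muscle form was lower and the broad form not called. Against that pattern, the broad form was lower and the muscle form not called in 2 pairs, and in 1 pair the muscle form, Hk2, was higher and the broad form not called. In 1 pair the broad form was higher and the muscle form not called, and in 3 neither form was called. The labels broad and muscle are those of the list, and they are loose for pairs such as Gys2 with Gys1 and Gpd2 with Gpd1. Ldhb was listed as the muscle form, yet Ldha stood higher on the day 0 arrays (14.10 and 14.04, against 11.54 and 11.54). With these labels exchanged, that pair would have the broad form lower and the muscle form not called. Among the 15 opposite pairs, Dusp26 was listed as the muscle form, yet Dusp1 stood higher on the day 0 arrays (12.67 and 12.56, against 9.33 and 9.24). With its labels exchanged, the pair of Dusp1 and Dusp26 would go against the pattern. With 1 array left out, 13 or 14 of the 15 pairs stayed opposite in their calls, and the forms that lost the call were Actn3, Tpm2, Myl1 and Dusp26. Slc2a1, the transporter GLUT1 of most cells, stood at 13.47 and 13.49 on the day 1 arrays, against 10.80 and 10.66 on the day 0 arrays, a rise of 2.75 ± 0.08, set against the fall of Slc2a4 given above. Ampd3, the AMP deaminase of red cells and injured muscle, stood at 13.14 and 13.02 on the day 1 arrays, against 10.49 and 10.74 on the day 0 arrays, and Ampd1, the muscle form, at 12.50 and 12.44 on the day 1 arrays, against 13.57 and 13.44 on the day 0 arrays. Ampd3 rose by 2.46 ± 0.11 and Ampd1 fell by 1.04 ± 0.18.

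In the sugar pathway Pfkp and Pgam1 rose 4-fold and 3.82-fold and the muscle forms Pfkm and Pgam2 fell, with differences of -0.49 and -1.45. In the translation apparatus Eef1a1 rose by 0.67 ± 0.07, and Eef1a2, the elongation factor of adult fibres and neurons, fell by 0.65 ± 0.14. Of the inhibitors of matrix metalloproteinases, Timp1 rose by 4.38 ± 0.13 and Timp4 fell by 2.48 ± 0.11, and of the inhibitors of mTORC1, Ddit4 rose by 1.43 ± 0.09 and Ddit4l fell by 3.40 ± 0.13. The last 2 pairs were listed because earlier results had shown Timp1, Timp4 and Ddit4l to move. The leucocyte markers rose on the same arrays, and the part of leucocyte entry in the opposite changes was not tested.

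**Figure D3:**
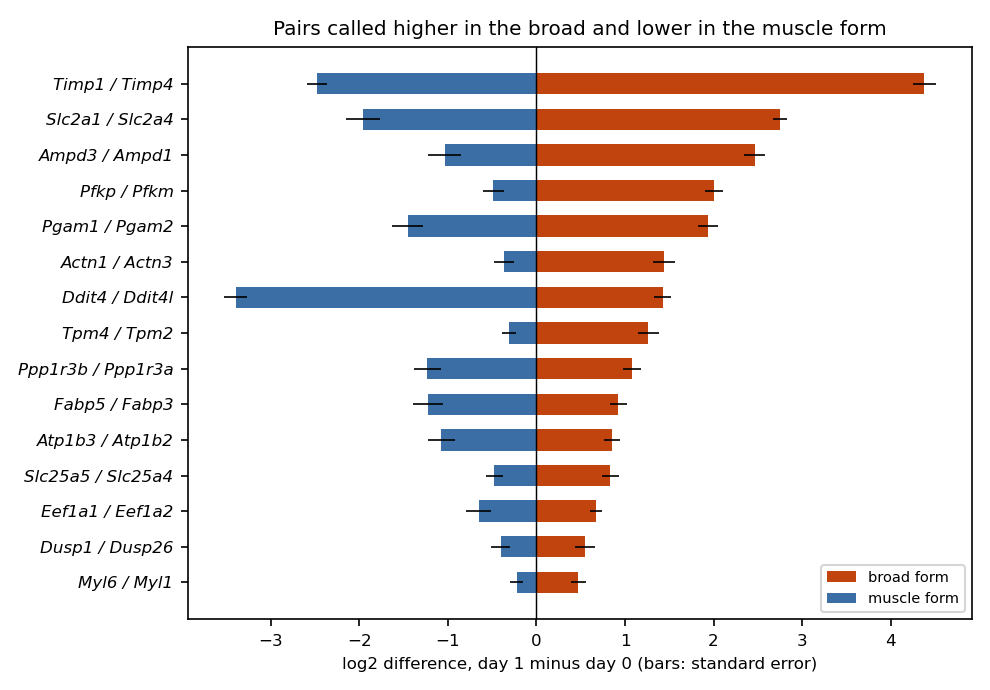
Log2 difference between day 1 and day 0 with its standard error for the 15 pairs in which the broad form (right, listed first) was called higher and the muscle form (left) lower. The pair of Timp1 and Timp4 spans the widest range, from 4.38 to -2.48.

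MicroRNA genes were read through probe sets for their precursor transcripts, so the values are not those of mature microRNAs. Of 18 measured genes 9 were higher on day 1 and 2 lower, but 5 were higher when the 25% of genes with the lowest signal were left out of the test. Mir142, a leucocyte microRNA, stood at 8.86 and 8.80 on the day 1 arrays, against 6.96 and 7.03 on the day 0 arrays and rose by 1.84 ± 0.15, beside the leucocyte markers. Mir1a-1, a muscle microRNA gene, stood at 4.76 and 5.38 on the day 1 arrays, against 7.03 and 7.34 on the day 0 arrays and fell by 2.12 ± 0.22, and Mir206, another muscle microRNA gene, fell by 0.49 ± 0.17 (adjusted p = 0.029). Mir206 was not called without either day 0 array (adjusted p = 0.07 and adjusted p = 0.11) or without the left pool of day 1, where its difference was -0.28 (adjusted p = 0.25). Mir146b, an NF-kB target, rose by 0.36 ± 0.11 (adjusted p = 0.015), a call that ended without either day 0 array and without the left pool of day 1 (adjusted p of 0.051, 0.061 and 0.1). The other 7 genes that changed lie in 3 clusters, and all 7 rose. The mature sequences (RefSeq, build GRCm38.p6) are shown with the seed, bases 2 to 8, in capitals, since the seed pairs with target messages and is what related microRNAs have in common. The sequence of the product of Mir1a-1 is not shown here.
miR-29a-3p: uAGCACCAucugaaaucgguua
miR-29b-3p: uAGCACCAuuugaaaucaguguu
miR-221-3p: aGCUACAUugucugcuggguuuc
miR-222-3p: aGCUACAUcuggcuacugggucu
miR-23a-3p: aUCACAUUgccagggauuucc
miR-27a-3p: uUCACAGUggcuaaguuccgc
miR-24-3p: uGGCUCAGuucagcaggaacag
miR-142a-3p: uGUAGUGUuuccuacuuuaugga
miR-206-3p: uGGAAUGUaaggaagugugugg
miR-146b-5p: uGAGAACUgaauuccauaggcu
Mir29a and Mir29b-1 share a seed and lie within 434 bases on chromosome 6 (31062660 to 31063093, minus strand). Mir221 and Mir222 share another and lie within 678 bases on chromosome X (19146294 to 19146971, minus strand), and Mir23a, Mir27a and Mir24-2, within 404 bases on chromosome 8 (84208518 to 84208921, plus strand), have 3 different seeds. Mir29a stood at 6.75 and 6.24 on the day 1 arrays, against 5.43 and 4.96 on the day 0 arrays and rose by 1.30 ± 0.17, with Mir29b-1 at 0.55 ± 0.11. Mir221 and Mir222 rose by 0.79 ± 0.11 and 0.55 ± 0.14, though Mir222 was not called without the left pool of day 0 (0.38, adjusted p = 0.067) or the right pool of day 1 (0.45, adjusted p = 0.055). The genes Mir23a, Mir27a and Mir24-2 rose by 0.62 ± 0.09, 0.97 ± 0.09 and 0.60 ± 0.07. Mir155 and Mir499, on the list as well, were not called (0.02 ± 0.12 and 0.02 ± 0.13).

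Day 3 shows which changes of day 1 went further. On day 3, 3896 genes (19.5%) were higher and 4923 (24.7%) lower than on day 1, with a median difference of -0.10, although an array shift that sets each day's median difference from day 0 to 0 gave 5143 higher and 2319 lower. The comparison uses the day 1 arrays again, so the 2 are given side by side only. Ddit4l and Lrrc30 stood -2.75 and -2.84 from day 0 on day 3. For Ddit4l day 3 was above day 1 (0.64 ± 0.13, adjusted p = 0.0022), and Lrrc30 was not called between these days (0.19 ± 0.13, adjusted p = 0.25). Gdap1 and Mylk4, by contrast, were lower again on day 3, with differences from day 1 of -1.25 ± 0.10 and -1.07 ± 0.17. Mstn and Phkg1 were likewise lower on day 3 than on day 1 (-1.58 ± 0.15 and -1.44 ± 0.20). Casq2 was higher on day 3 than on day 1 by 1.85 ± 0.08 (adjusted p = 3.3e-08) and stood at 0.13 from day 0. Medians from day 0 on days 1, 3, 5 and 14 were -0.77, -1.29, -1.45 and -0.87 for the muscle kinase list, -0.65, -0.93, -1.07 and -0.50 for the respiratory chain and -0.38, -0.53, -0.61 and -0.01 for contractile proteins. Over all genes tested they were 0.04, -0.07, -0.12 and -0.11.

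Among the regulators, Trim63 and Klhl40 were lower on day 3 than on day 1 by more than a log2 unit (-1.80 ± 0.15 and -1.57 ± 0.20), and Trim63 stood -0.25 from day 0 on day 3. Nr4a3, Pdgfa, Mxd1 and Ptpn2 also stood near their day 0 level or closer to it on day 3, at -0.23, -0.11, 0.71 and 0.63 from day 0. In differences from day 0, Runx1, Stat3 and Hif1a stood at 2.50, 1.06 and 1.71 on day 3 and at 2.26, 0.79 and 1.44 on day 14. Myog was higher on day 3 than on day 1 by 1.10 ± 0.09 (adjusted p = 2.9e-06).

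**Figure D4:**
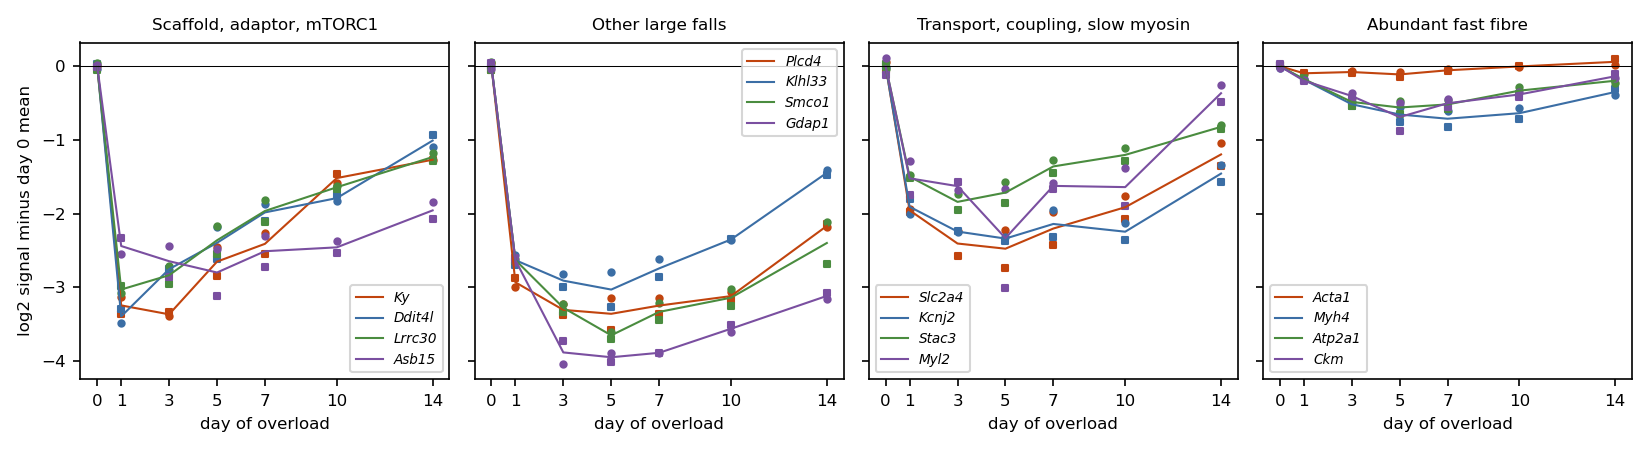
Log2 signal of 16 fibre genes minus its mean on day 0, by day of overload, with lines through the mean of the 2 arrays of a day, circles for the left pool and squares for the right. Ddit4l, Ky and Lrrc30 are 3 or more log2 units down on day 1, Gdap1 stands at -3.88 on day 3, and Acta1, Myh4, Atp2a1 and Ckm stay within 1 unit of day 0.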

How the data were processed

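The authors deposited log2 signals of 35557 probe sets on 14 arrays. Partek is named, without a version, per the submitters' processing notes, while the sources used here do not give the normalization method. Of the probe sets, 21789 had 1 gene symbol in the platform annotation, 1621 several and 12147 none. The probe set with the highest mean stood for each of the 999 genes with several, which left 19938 genes. Probe sets of close paralogs may share signal.

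The deposited log2 values were fitted with limma 3.58.1 (R 4.3.3) in a model with a mean for each of the 7 days. All 14 arrays shared the estimate of spread (7 residual and 4.955 prior degrees of freedom), and p values were adjusted by the Benjamini-Hochberg method over all genes. The median standard error was 0.0974, a precision limited by the number of arrays. Medians of the 4 arrays lay between 8.25 and 8.30. On simulated data of 19938 genes with this design, 50 genes were changed at each of 4 sizes and no others. Of those with a log2 change of 0.25, 4% were recovered, with 58% at 0.5, 98% at 1 and 98% at 2. In that run 5 unchanged genes were called. Far more genes were called on day 1 (4455 higher and 4504 lower), which makes the adjusted threshold less strict. The simulated shares recovered are therefore not those of the real comparison. Tables were joined with Python 3.11.15 and pandas 2.3.3.

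Members and lists were chosen with earlier results of these data known. Genes were named by rule. The rule took the 15 largest rises outside chemokines and interleukins and the 15 largest falls. In each list it took up to 4 called rises and 4 called falls. All of these were drawn only from genes with both day 1 arrays beyond both day 0 arrays. The rule also took uncalled members described as such, pairs called in opposite directions, all microRNA genes and the markers. Nfkbia, Nfkbie, Tnfaip3, Rel, Osmr and Chrng fall outside the rule and were chosen after their values were seen, as were the named genes whose day 3 values are given. Alternatives were quantile normalization, an array shift, a filter on low signal, other summaries of probe sets, other variance estimates, a replicate block, a stricter threshold and leaving out each array. Some listed genes and 1 gene list are not reported here.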

Additional observations from a re-analysis of the deposited data

Results flagged for a closer look

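A signal was present in probe sets that the comparisons above do not use. Of 13768 probe sets without a single gene symbol, 1508 (11%) rose and 1532 fell on day 1. These calls came from a separate fit of the same limma model to all 35557 probe sets, with p values adjusted over those. The transcripts of the probe sets without a single symbol are unnamed here.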

How the results depend on the processing

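For day 1 against day 0, leaving out 1 array at a time gave 3788 to 4252 genes higher and 3939 to 4162 lower, and 910 to 1064 higher and 641 to 675 lower by at least 2-fold. The lone array left on a day was assumed to vary like the others. For day 3 against day 1, leaving out 1 array gave 3124 to 3488 genes higher and 2874 to 4249 lower, with 2874 without the left pool of day 3 and 3114 without the right pool of day 1. The 4923 lower genes became 2319 with the array shift, by whose construction the whole distribution moves, and 2494 at an adjusted p under 0.01. Of 492 list counts under alternatives, 5 moved by over 1.5 times, in 4 of 41 lists. Higher microRNA genes numbered 5 of the main 9 without the lowest 25% of genes, and lower Eph genes 2 with only the arrays of the days compared (main 4, leave-one-out 3 to 6). Lower contractile genes numbered 12 at an adjusted p under 0.01 and 12 to 16 with 1 array left out (main 21), and lower FGF genes 3 to 5 (main 5). Of 417 named genes and markers, 40 lost the call under at least 1 alternative, and Alas2, a red cell marker not called in the main comparison, stood at -0.45 (adjusted p = 0.023) without the right pool of day 0 and at 0.47 (adjusted p = 0.018) without the left, called in opposite directions. The cause was not tested. Replicate numbers stand for the side. Right-minus-left differences of 2 days correlated at -0.185 to 0.354 (median 0.0665, 6 of 21 pairs of days above 0.1). Such differences cancel what both pools of a day have in common, so they cannot show what the pools share within a day. A fit with the side as a replicate block gave 4589 genes higher and 4592 lower.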
